A study of Mus musculus with 2 samples.

Results

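The genes of the intracellular calcium store comprised 10 of the 32531 genes listed in a table of ribosome-bound RNA from mouse cerebral cortex. They were chosen by name for what they encode: the IP3 receptors Itpr1, Itpr2 and Itpr3, the ryanodine receptors Ryr1, Ryr2 and Ryr3, the SERCA pumps Atp2a2 and Atp2a3, the store sensor Stim1 and the entry channel Orai1. All 10 had a row and at least 1 count in both libraries. The RNA came from untreated adult Gdnf-EGFP/Rpl10a mice of line ES2243, in which ribosomes carry an EGFP-tagged subunit in the cells that use the Gdnf regulatory sequences. Tagged polysomes were pulled down from cortex homogenate with antibodies against EGFP, and the series names pericytes as the profiled cells. The 2 immunopurified libraries, named IP1 and IP2 by their labels, formed 1 group with no contrast between conditions. The library names stand for the purification and have no link to IP3, inositol trisphosphate. The labels do not say whether the libraries came from separate animals, so the spread between them may be technical.

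The endoplasmic reticulum, called sarcoplasmic reticulum in muscle, is the main calcium store of most cells. Receptors that couple to Gq activate phospholipase C, which makes IP3, and IP3 opens the IP3 receptors to let calcium out of the store. Ryanodine receptors are release channels of the same membrane that open on a rise in cytosolic calcium. SERCA pumps use ATP to refill the store, and when it runs low the sensor STIM1 opens ORAI1 channels in the plasma membrane. In mural cells, the pericytes and smooth muscle cells of vessels, this cycle helps set the tone of the vessel wall, while neurons and glia use the same genes for their own signals.

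Reads counted in genes totalled 65200231 in IP1 and 72732502 in IP2, and levels are given as counts per 1000000 of that total (CPM). A gene without a count could have had up to 3 counts, or 0.046 CPM (IP1) and 0.0412 CPM (IP2), which covers counting error only. Marker genes of several cell types were present. All 8 mural markers (among them Rgs5 and Pdgfrb), all 7 neuronal, all 5 oligodendrocyte precursor and all 5 oligodendrocyte markers reached 10 CPM in both libraries, as did 5 of 6 astrocyte markers. Of the endothelial markers 1 of 7 did, and of the microglial ones 0 of 5. No unpurified cortex was analysed here, so the values below are levels in the purified RNA and cannot be assigned to pericytes. In such bulk RNA, fewer cells of a type and less RNA per cell cannot be told apart.

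Of the 10 genes, 7 reached 10 CPM in both libraries, against 28.3% of all listed genes. Among the 17306 genes with 10 or more counts in total, as all 10 had, the share was 53.2%. Ordered by mean CPM they ran Atp2a2, Itpr1, Itpr2, Ryr2, Atp2a3, Stim1, Orai1, Ryr3, Itpr3 and Ryr1. This order counts reads and is not corrected for transcript length, so it does not rank the number of transcripts. Neighbours whose ranges over the 2 libraries overlapped were Ryr2 with Atp2a3, Stim1 with Orai1, and Orai1 with Ryr3. Compared within each library, Stim1 was above Orai1 and Orai1 above Ryr3 in both, and only Ryr2 and Atp2a3 changed order.

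**Figure D1:**
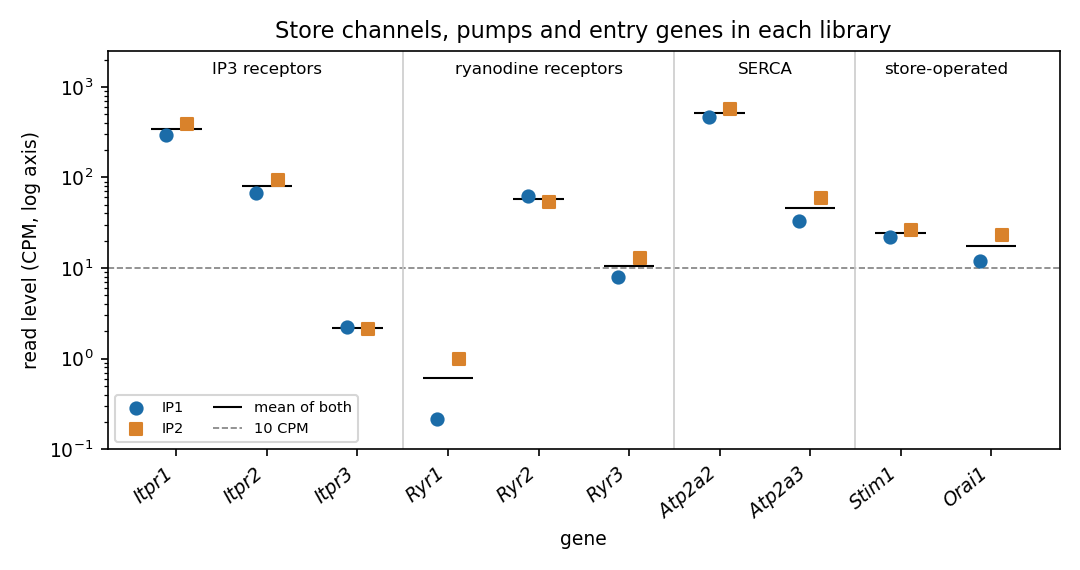
Read level of each gene in IP1 (circles) and IP2 (squares) in CPM on a log axis, with a bar at the mean of both and a dashed line at 10 CPM. Atp2a2 and Itpr1 lie highest, Itpr3 and Ryr1 lie under 10 CPM in both libraries, and Ryr3 lies on either side of the line.

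The IP3 receptors are tetrameric channels whose subunits come from separate genes and can mix. Itpr1 (chromosome 6, 108213083 to 108551116, mm10), the main form in many neurons and also used in smooth muscle, was counted at 297 CPM (IP1) and 388 CPM (IP2), a mean of 343 ± 64.5 CPM (SD, n = 2). Itpr2 (chromosome 6, 146108299 to 146502258), a form known for its role in astrocytes, was at 66.8 CPM (IP1) and 94.4 CPM (IP2), a mean of 80.6 ± 19.5 CPM (SD, n = 2). Both were lower in IP1 than in IP2. Itpr3 (chromosome 17, 27057002 to 27122223), the form best known from epithelia and other non-neuronal cells, had only 147 counts in IP1 and 153 in IP2. That was 2.25 CPM (IP1) and 2.10 CPM (IP2), and the counting interval of its ratio spanned 1 (IP1 over IP2 1.07, exact 95% interval 0.849 to 1.35).

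Reads divided among the IP3 receptors almost alike in the libraries. Itpr1 took 81.1% of their reads in IP1 (95% counting interval 80.6 to 81.6%) and 80.1% in IP2 (79.7 to 80.5%). Itpr2 took 18.2% in IP1 (17.8 to 18.7%) and 19.5% in IP2 (19.1 to 19.9%). Itpr3 held 0.616% in IP1 (0.521 to 0.724%) and 0.434% in IP2 (0.368 to 0.508%). For each gene the intervals of the libraries did not overlap, so these small shifts also lie outside counting error. All are shares of reads and not of transcripts. The summed level of the family was 366 CPM (IP1) and 485 CPM (IP2), so the family as a whole was lower in IP1 while its inner division moved little.

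The ryanodine receptors are the largest of these channels, with Ryr1 known from skeletal muscle, Ryr2 from heart and brain, and Ryr3 from brain and smooth muscle. Ryr2 (chromosome 13, 11553099 to 12106945) led with 62.7 CPM (IP1) and 53.2 CPM (IP2), a mean of 58.0 ± 6.75 CPM (SD, n = 2). It was the only gene of the 8 with a mean of 10 CPM or more that was higher in IP1. Ryr3 (chromosome 2, 112631354 to 113217405) was at 7.91 CPM (IP1) and 12.9 CPM (IP2). Ryr1 (chromosome 7, 29003340 to 29125179) was the least read of the 10, with 14 counts in IP1 (0.215 CPM) and 72 in IP2 (0.990 CPM). Both Ryr3 and Ryr1 were thus lower in IP1, opposite to Ryr2.

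With these opposite moves, the division of ryanodine receptor reads shifted between the libraries. Ryr2 took 88.5% of them in IP1 (95% counting interval 87.6 to 89.4%) and 79.3% in IP2 (78.2 to 80.5%). Ryr3 took 11.2% in IP1 (10.3 to 12.1%) and 19.2% in IP2 (18.1 to 20.3%), and Ryr1 the remaining 0.303% in IP1 and 1.48% in IP2. The family's sum was close in the libraries, at 70.9 CPM (IP1) and 67.1 CPM (IP2). The shifts in share lie outside counting error, but with 1 value per library they say nothing of how much such shares vary between animals.

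**Figure D2:**
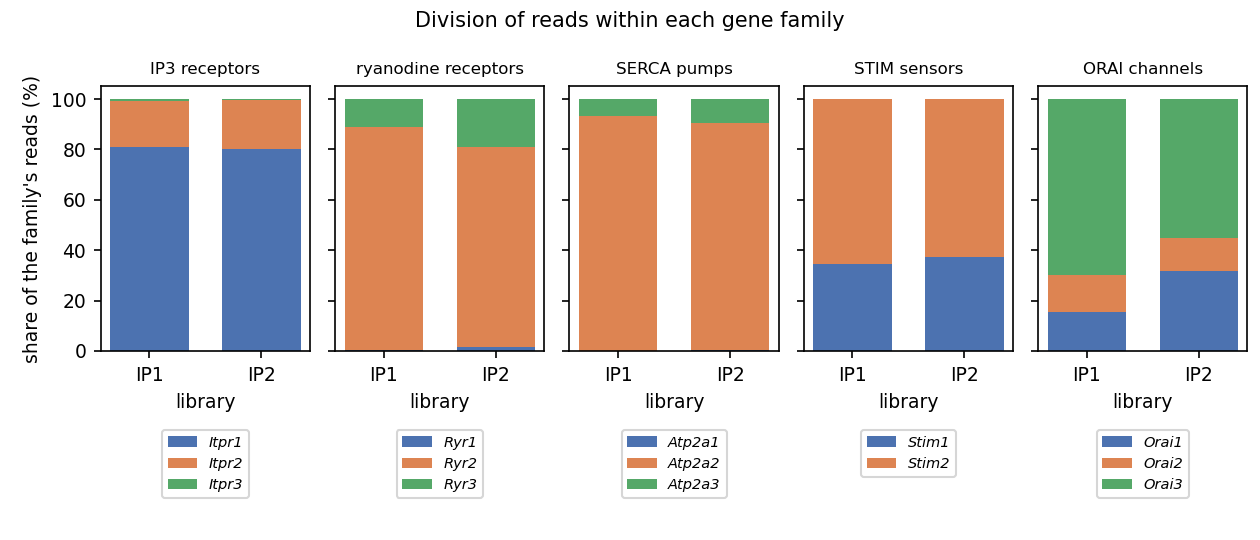
Share of the reads of each family (percent) taken by each member gene, in IP1 and IP2. The IP3 receptor and SERCA bars differ little between the libraries, while the Orai1 share is 15.4% in IP1 and 31.7% in IP2 and the Ryr3 share 11.2% in IP1 and 19.2% in IP2.

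The SERCA pumps return calcium to the store. Atp2a2 (chromosome 5, 122453513 to 122502225), whose products include the housekeeping pump and the form of heart and smooth muscle, was the most read of the 10 genes with 462 CPM (IP1) and 568 CPM (IP2), a mean of 515 ± 75.1 CPM (SD, n = 2). Atp2a3 (chromosome 11, 72961169 to 72993043), known from blood cells, endothelium and some neurons, was at 33.3 CPM (IP1) and 59.2 CPM (IP2), a mean of 46.2 ± 18.3 CPM (SD, n = 2). Its IP1 over IP2 ratio of 0.563 (95% counting interval 0.534 to 0.592) was further from 1 than that of Atp2a2, 0.813 (0.801 to 0.825). Atp2a2 took 93.3% of SERCA reads in IP1 and 90.3% in IP2, and Atp2a3 took 6.72% in IP1 and 9.40% in IP2. Endothelial markers, of a cell type that uses Atp2a3, summed to 33.4 CPM (IP1) and 49.8 CPM (IP2) over 7 genes. Slc2a1 was highest with 15.3 CPM (IP1) and 24.1 CPM (IP2), then Flt1 with 9.89 CPM (IP1) and 12.03 CPM (IP2) and Cdh5 with 6.83 CPM (IP1) and 11.0 CPM (IP2). Cldn5 was at 0.0767 CPM in IP1 and at 0 in IP2, and Pecam1 was under 1 CPM in both. The 6 endothelial markers with 10 or more counts in total were all lower in IP1, 5 of them past a ratio of 1.5, with a median log2 ratio of -0.79. Their part in the Atp2a3 level was not tested.

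The third SERCA gene, Atp2a1, the pump of fast skeletal muscle, had 1 count in IP1 and 124 in IP2. The IP1 over IP2 ratio was 0.0090, with an exact 95% interval of 0.000226 to 0.0511. Ryr1, also known from skeletal muscle, was lower in IP1 too. Sln, a SERCA inhibitor of muscle, had 1 count in IP1 and 7 in IP2, too few for a direction (IP1 over IP2 0.159, exact 95% interval 0.00354 to 1.24). Of 17 ryanodine receptor partners with 10 or more counts in total, 12 were lower in IP1 and 5 higher. Among the 12 were Hrc (IP1 over IP2 0.524, interval 0.450 to 0.609) and Casq2 (0.628, 0.593 to 0.664). Among the 5 were Casq1 (IP1 over IP2 1.49, interval 0.979 to 2.27), Srl (1.40) and Jph2 (1.62). Of 10 other skeletal muscle genes, chosen after Atp2a1 was seen, 7 had 10 or more counts in total, and 5 of these were higher in IP1 and 2 lower in IP1. The sum of the 10 was 4.46 CPM (IP1) and 3.79 CPM (IP2), with Myh1 at 0.552 CPM (IP1) and 1.33 CPM (IP2) and Acta1 at 1.33 CPM (IP1) and 0.839 CPM (IP2).

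Store-operated entry joins a sensor in the store membrane to a channel in the plasma membrane. Stim1 (chromosome 7, 102261514 to 102437319), a calcium sensor with its binding site inside the store, was at 22.0 CPM (IP1) and 26.6 CPM (IP2), a mean of 24.3 ± 3.23 CPM (SD, n = 2). Orai1 (chromosome 5, 123015074 to 123030452), which forms the pore of the entry channel, was at 11.8 CPM (IP1) and 23.3 CPM (IP2), a mean of 17.6 ± 8.10 CPM (SD, n = 2). Orai1 had the largest difference of the 8 genes that averaged 10 CPM or more, with an IP1 over IP2 ratio of 0.508 (95% counting interval 0.466 to 0.554).

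The paralogs of both were counted too. Stim2, a sensor that responds to smaller losses of stored calcium, was at 41.7 CPM (IP1) and 44.5 CPM (IP2), so that Stim1 took 34.5% of STIM reads in IP1 (95% counting interval 33.1 to 36.0%) and 37.4% in IP2 (36.1 to 38.7%). Orai3 was at 53.6 CPM (IP1) and 40.4 CPM (IP2), and Orai2 at 11.2 CPM (IP1) and 9.83 CPM (IP2). Orai3, found in mammals alone, and Orai2 were thus higher in IP1, while Orai1 was lower. Orai1 held 15.4% of ORAI reads in IP1 (14.5 to 16.5%) and 31.7% in IP2 (30.4 to 32.9%), and Orai3 held 69.97% in IP1 (68.7 to 71.2%) and 54.97% in IP2 (53.6 to 56.3%). The sum of the ORAI genes was 76.5 CPM (IP1) and 73.5 CPM (IP2).

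Set against all genes, 8 of the 10 were lower in IP1 than in IP2, and their median log2 ratio of IP1 over IP2 was -0.44. Over the 17306 genes with 10 or more counts in total, 44.7% were lower in IP1 and the median was 0.06. Past a ratio of 1.5 in either direction were 4 of the 10 genes (Orai1, Atp2a3, Ryr3 and Ryr1), against 31.9% of those 17306 genes, and all 4 were lower in IP1, against 13.7%. That background includes genes with few counts. Among the 9656 genes that averaged 10 CPM or more, a comparison chosen after the values were seen, 11% were past the ratio, and 6.56% were past it and lower in IP1, 4.42% were past it and higher in IP1, and 46.7% were lower in IP1 at any ratio. Of the 8 members at that level, 3 were past it, all lower in IP1, and 7 were lower in IP1 at any ratio. Within those 9656 genes, 1.06% had a lower log2 ratio than Orai1, 2.14% than Atp2a3, 4.10% than Ryr3, 9.13% than Itpr2, 13.4% than Itpr1 and 76.1% than Ryr2. With 2 libraries of 1 group there is no error estimate for a ratio, so no test was made.

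**Figure D3:**
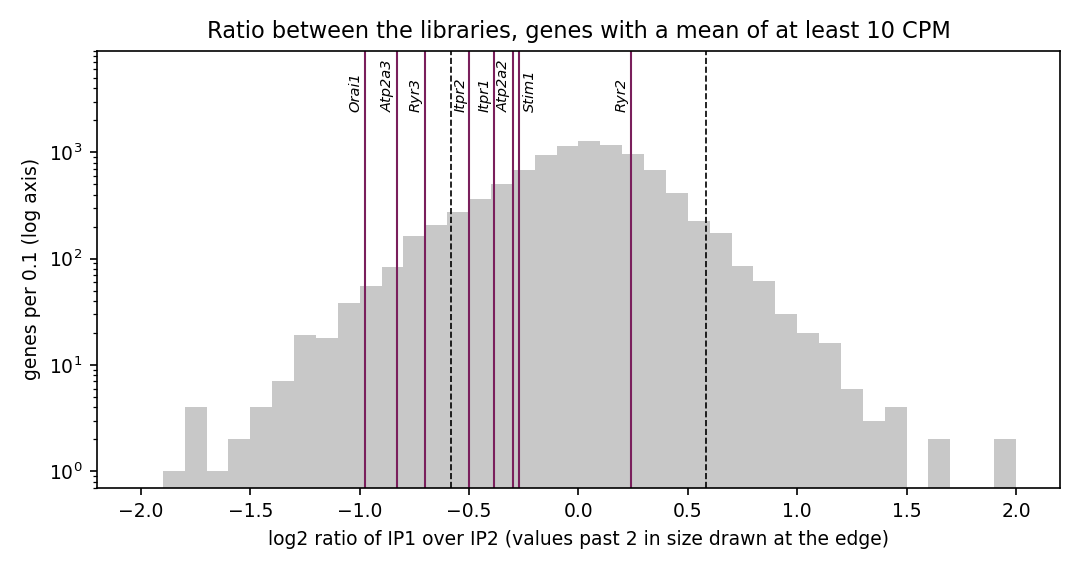
Number of genes (log axis) by log2 ratio of IP1 over IP2, for the 9656 genes that averaged 10 CPM or more. Vertical lines mark the 8 genes of the store at that level and dashed lines a ratio of 1.5 in either direction. Orai1, Atp2a3 and Ryr3 lie outside the dashed lines and Ryr2 alone lies right of 0.

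Marker lists of other cell types also differed between the libraries, some in the direction of the store genes and some not. Over the 17306 genes 44.7% were lower in IP1, and among the 9656 genes that averaged 10 CPM or more 46.7% were. These shares apply to all marker lists, the endothelial one included. All 6 astrocyte markers were lower in IP1, with a sum of 1363 CPM (IP1) and 2418 CPM (IP2) and a median log2 ratio of -0.82. None of them was at 0, and Aldh1l1, the lowest, was at 8.30 CPM (IP1) and 10.8 CPM (IP2). Of the mural markers 6 of 8 were lower in IP1 (median log2 ratio -0.57), although their sum, which Rgs5 dominates, was 6258 CPM (IP1) and 6105 CPM (IP2). Oligodendrocyte precursor markers summed to 2081 CPM (IP1) and 2373 CPM (IP2), with 3 of 5 lower in IP1, and 1 of these 3, Cspg4, is also a mural marker. Neuronal markers summed to 15794 CPM (IP1) and 13656 CPM (IP2), with 3 of 7 lower in IP1. Arterial smooth muscle markers summed to 673 CPM (IP1) and 613 CPM (IP2), with 4 of 5 lower in IP1 and 0 past a ratio of 1.5. Their median log2 ratio was -0.02. The counting intervals of Myh11 (IP1 over IP2 0.998, 0.975 to 1.02) and Tagln (0.984, 0.938 to 1.03) spanned 1. Oligodendrocyte markers summed to 2022 CPM (IP1) and 2157 CPM (IP2), with 3 of 5 lower in IP1. No marker of these lists was at 0. Microglial markers summed to 21.6 CPM (IP1) and 26.7 CPM (IP2), with 4 of 5 lower in IP1 and a median log2 ratio of -0.52. Of these, Cx3cr1 had a counting interval that spanned 1 (IP1 over IP2 0.999, 0.809 to 1.23). C1qa was the lowest at 0.0613 CPM (IP1) and 0.220 CPM (IP2). The endothelial markers are given above with Atp2a3. The part of these cell types in the ratios of the store genes was not tested.

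The start regions of 3 genes are shown because they stand at the ends of the comparison among the 8 members that averaged 10 CPM or more. Atp2a3 and Orai1 had the lowest IP1 over IP2 ratios of the 8, and Ryr2 alone was higher in IP1. Of the other members past the ratio of 1.5, Ryr1, further from 1 but on few counts, has a start region that is not shown, and Ryr3 has none in the source. Each sequence holds the 250 bases before the start, read along the gene's strand from the RefSeq promoter table for GRCm38.p6, which has 7 of the 10 genes. Capitals mark the GC box GGGCGG on either strand, and matches that overlap each other were counted apart.
Atp2a3, chr11:72960919-72961168, plus strand: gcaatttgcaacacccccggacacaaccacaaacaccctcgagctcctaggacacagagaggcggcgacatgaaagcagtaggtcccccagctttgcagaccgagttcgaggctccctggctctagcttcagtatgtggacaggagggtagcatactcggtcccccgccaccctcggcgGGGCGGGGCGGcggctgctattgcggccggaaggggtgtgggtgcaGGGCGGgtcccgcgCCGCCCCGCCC
Orai1, chr5:123014824-123015073, plus strand: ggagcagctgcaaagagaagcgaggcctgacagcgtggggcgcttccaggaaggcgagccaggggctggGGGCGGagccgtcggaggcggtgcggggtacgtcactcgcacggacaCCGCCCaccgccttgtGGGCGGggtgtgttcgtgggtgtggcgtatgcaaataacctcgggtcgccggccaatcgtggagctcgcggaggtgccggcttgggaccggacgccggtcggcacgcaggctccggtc
Ryr2, chr13:12106946-12107195, minus strand: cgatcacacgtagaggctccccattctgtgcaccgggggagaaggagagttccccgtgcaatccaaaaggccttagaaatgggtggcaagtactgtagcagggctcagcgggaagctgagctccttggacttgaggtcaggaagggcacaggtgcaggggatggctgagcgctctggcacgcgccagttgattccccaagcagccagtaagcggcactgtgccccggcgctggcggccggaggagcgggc
The Atp2a3 window held 5 GC boxes, that of Orai1 held 3 and that of Ryr2 held 0. Of the other members in the table, the window of Stim1 held 8, that of Itpr2 held 4, that of Ryr1 held 2 and that of Itpr3 held 1. The windows of these other members precede starts that lie inside the gene spans given above. Windows of this length with at least 1 made up 32.7% of all 32851 promoters in the table. None of the 3 windows held a TATA box (TATAAA, in 12.4% of all promoters), an E-box (CACGTG, 6.02%), a cyclic AMP response element (TGACGTCA, 1.55%) or the core of an NFAT site (TGGAAA, 18.6%), searched on both strands. Their share of G and C was 66.8% for Atp2a3, 70.8% for Orai1 and 63.2% for Ryr2, against a median of 52.4% over all promoters. These matches describe the letters of the windows and were not related to the ratios by any test.

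The wider pathway was read from 9 lists with 95 genes in the table. Of these 95, 66 (69.5%) reached 10 CPM in both libraries, against 28.3% of all listed genes and 53.2% of the 17306 genes. Of the 92 with 10 or more counts in total, 24 (26.1%) were past a ratio of 1.5, 6 higher in IP1 and 18 lower in IP1. Over the 17306 genes 31.9% were past it, 18.1% higher in IP1 and 13.7% lower in IP1. Among the 9656 genes that averaged 10 CPM or more, as not all of the 92 did, these shares were 11%, 4.42% and 6.56%. Both sets of shares apply to the list counts below as well. The genes that make IP3 were led by Gnaq (533 CPM in IP1, 477 CPM in IP2) and Gna11 (189 CPM in IP1, 162 CPM in IP2), the G protein subunits that switch on phospholipase C. The phospholipase C gene Plcb1 was at 285 CPM (IP1) and 194 CPM (IP2). Of the 15 genes of this list, 8 reached 10 CPM in both, 10 were higher in IP1, 3 were past the ratio on the side of IP1 and 1 on that of IP2. Of the 17306 genes, 9571 were higher in IP1. The list's median log2 ratio was 0.16, against 0.06 over the 17306 genes and -0.44 for the store genes.

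Of 17 genes that remove IP3 or act on its receptors, 9 reached 10 CPM in both libraries. Ahcyl1, which encodes IRBIT, a protein that competes with IP3 on the receptor, was at 884 CPM (IP1) and 788 CPM (IP2). Mrvi1, whose product IRAG links the IP3 receptor to cyclic GMP kinase in smooth muscle, was at 162 CPM (IP1) and 153 CPM (IP2), and Ahcyl2 at 119 CPM (IP1) and 117 CPM (IP2). Itpka, a kinase that converts IP3 and is known from neurons, was at 16.7 CPM (IP1) and 9.21 CPM (IP2). Of the 16 with 10 or more counts in total, 1 was past the ratio on the side of IP1 and 2 on that of IP2, with a median log2 ratio of -0.03.

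Partners of ryanodine receptors and of store junctions were counted at 10 CPM in both libraries for 12 of 18 genes. Fkbp1a, the FK506-binding protein that sits on release channels, was at 1204 CPM (IP1) and 1293 CPM (IP2). Jph4, a junctophilin of neurons that ties the store to the plasma membrane, was at 289 CPM (IP1) and 342 CPM (IP2). The scaffold gene Homer1, which links glutamate receptors to IP3 receptors, was at 152 CPM (IP1) and 255 CPM (IP2), and Tmem38b, a potassium channel of the store membrane, at 15.0 CPM (IP1) and 27.2 CPM (IP2). Of the 17 with 10 or more counts in total, 1 was past the ratio and higher in IP1 and 4 were past it and lower in IP1, and the median log2 ratio was -0.25.

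Of 9 other store pumps and SERCA regulators, 6 reached 10 CPM in both. Of the 8 with 10 or more counts in total, 0 were past the ratio on the side of IP1 and 3 were past it on that of IP2, with a median log2 ratio of -0.34. Tmbim6, a protein of the store membrane, was at 150 CPM (IP1) and 227 CPM (IP2). Tmem64 was at 211 CPM (IP1) and 161 CPM (IP2), and Atp2c1, the calcium and manganese pump of the Golgi, at 91.1 CPM (IP1) and 113 CPM (IP2). Of the 5 store-operated entry partners with a row, 3 reached 10 CPM in both. Besides Stim2 and Orai3 they included Saraf, a brake on store-operated entry, at 36.9 CPM (IP1) and 47.4 CPM (IP2). In this list 1 gene was past the ratio, on the side of IP2, and the median was -0.09.

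The genes of proteins that bind calcium inside the store or the Golgi were lower in IP1, as most of the channels and pumps were. All 12 reached 10 CPM in both libraries, 11 were lower in IP1 and 6 were past the ratio on that side, with a median log2 ratio of -0.56. Among the 9656 genes that averaged 10 CPM or more, 46.7% were lower in IP1 and 6.56% were past the ratio on that side. The chaperone gene Hsp90b1 was at 405 CPM (IP1) and 513 CPM (IP2). Canx, the calnexin gene, was at 219 CPM (IP1) and 316 CPM (IP2), and Sdf4, of the Golgi, at 236 CPM (IP1) and 268 CPM (IP2). Hspa5, the chaperone BiP, differed most with 110 CPM (IP1) and 223 CPM (IP2) (IP1 over IP2 log2 ratio -1.02). The sum of the list was 1341 CPM (IP1) and 1886 CPM (IP2).

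Most genes of mitochondrial calcium uptake went the other way. Of 12 with a row, 11 reached 10 CPM in both and 10 were higher in IP1. Of the 17306 genes, 9571 were higher in IP1, as were 5150 of the 9656 that averaged 10 CPM or more. In the list 0 were past the ratio on the side of IP1 and 1 on that of IP2, and the median log2 ratio was 0.21. The counting intervals of Letm1 (log2 ratio 0.034) and Vdac3 (0.038) spanned 1. Both log2 ratios lay below the median of 0.06 over the 17306 genes. The directions in this list were not counted again with other scalings. Vdac1, the most read, was lower in IP1. The outer membrane channel genes Vdac1 (307 CPM in IP1, 336 CPM in IP2) and Vdac2 (220 CPM in IP1, 171 CPM in IP2) led, with Hspa9 at 191 CPM (IP1) and 164 CPM (IP2). The plasma membrane pumps, which export calcium from the cell, all reached 10 CPM, with Atp2b2 at 270 CPM (IP1) and 272 CPM (IP2), Atp2b1 at 248 CPM (IP1) and 279 CPM (IP2), Atp2b4 at 126 CPM (IP1) and 140 CPM (IP2), and Atp2b3 at 56.1 CPM (IP1) and 74.8 CPM (IP2). All 4 were lower in IP1, none past the ratio, against 46.7% lower in IP1 among the 9656 genes that averaged 10 CPM or more. The counting interval of Atp2b2 spanned 1 (IP1 over IP2 0.992, 0.972 to 1.01). Of the lysosomal channels, Tpcn1 was at 90.2 CPM (IP1) and 91.9 CPM (IP2), Mcoln1 at 6.53 CPM (IP1) and 5.18 CPM (IP2), and Tpcn2 at 0.721 CPM (IP1) and 0.302 CPM (IP2).

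**Figure D4:**
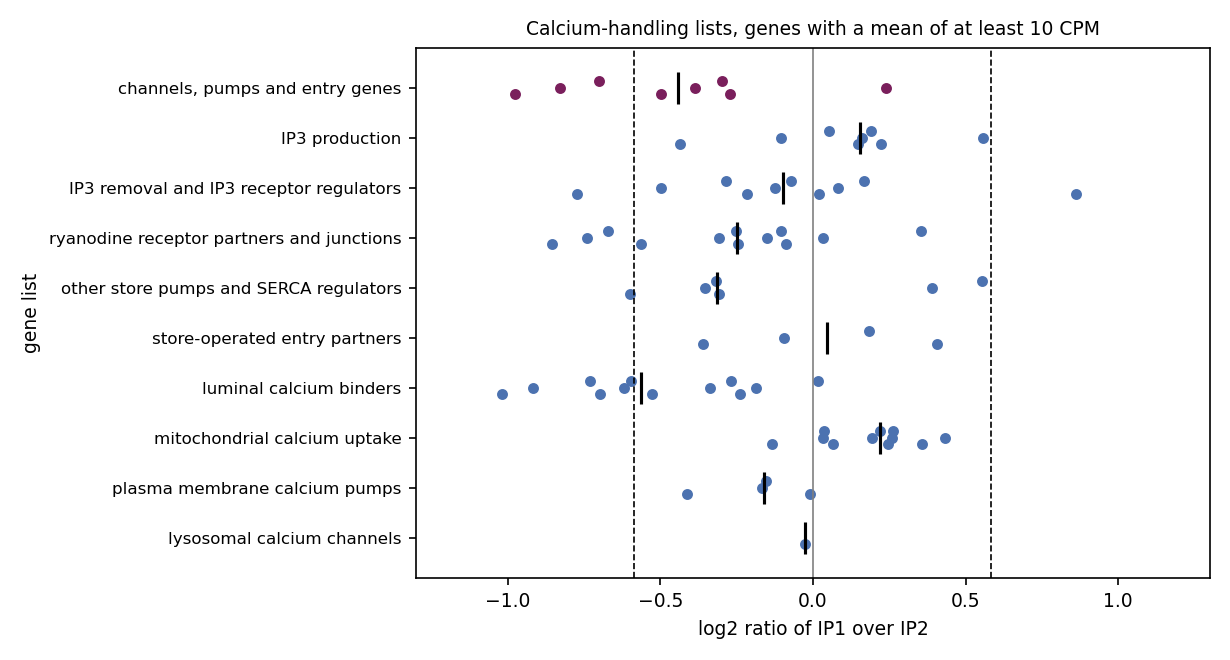
Log2 ratio of IP1 over IP2 for the genes of each calcium-handling list with a mean of at least 10 CPM (points), with a bar at the median of the points shown and dashed lines at a ratio of 1.5. The medians of the luminal calcium binders (-0.56) and of the store channels, pumps and entry genes (-0.44) lie to the left of 0. That of the mitochondrial uptake genes (0.22) lies to the right.

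The genes whose levels over both libraries lay nearest to those of Atp2a2, by Euclidean distance of log2(CPM + 1) over 2 libraries, were Myo5a (463 CPM in IP1, 561 CPM in IP2), Smarca2 (460 CPM in IP1, 556 CPM in IP2) and Kif5a (434 CPM in IP1, 570 CPM in IP2). Their distances were 0.0201, 0.0313 and 0.0907, among 32530 genes ranked. With only 2 libraries such likeness describes level and ratio and nothing else.

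Some of the members share their span with other annotated genes. In RefSeq, Itpr1, Itpr2 and Ryr1 each overlap 3 other genes, Itpr3 overlaps 2 and Stim1 overlaps 1, all of them long noncoding RNAs, microRNAs or a pseudogene. Reads that match several genes were left out of the counts, and the strand setting is not given in the sources used here, so part of these reads is uncertain. Ryr2, Ryr3, Atp2a2, Atp2a3 and Orai1 overlap no other gene in that annotation.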

How the data were processed

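Ribosome-bound RNA of 2 immunopurified cortex libraries was sequenced. The submitters' processing notes name STAR 2.0.0e as aligner, mm10 as genome and HTSeq as counter. The authors deposited 1 raw count per gene symbol and library, with no normalization. The summary lines and a row named unknown (1 read in IP1, 0 in IP2) were left out. Gene counts made up 58.1% of listed reads in IP1 and 57.7% in IP2, and reads aligned to several places, 31.2% in IP1 and 31.5% in IP2, were not assigned to genes. CPM used the total gene count. Log2 ratios of IP1 over IP2 used a prior of 0.5 counts. Intervals are exact Clopper-Pearson intervals on counts and cover counting error only, since PCR copies are not marked. Genes under 10 counts in total were left out of counts past a ratio, of directions over a list and of median ratios. The planned division by transcript length was not made, since no length of the build was used here, and shares are of reads. Coordinates came from RefSeq GRCm38.p6, the build of mm10. Alternative scalings were edgeR 4.0.16 TMM and DESeq2 1.42.0 size factors, in R 4.3.3. The other steps ran in Python 3.11.15 with scipy 1.17.1. The members and lists were chosen with earlier results of these data known. Named in each list are the 3 genes with the highest mean, up to 3 without a count and the one with the largest ratio at a mean of at least 10 CPM. One gene that this rule names is not reported here. Atp2a1, Orai2, Pecam1, Cldn5, Aldh1l1, Cdh5, Flt1, Slc2a1, C1qa, Sln, Casq1, Srl, Jph2, Myh1 and Acta1 were added after their values were seen. Hrc, Casq2, Letm1, Vdac3, Myh11, Tagln and Cx3cr1 were added in the same way. Of the listed symbols, Efcab4a, Efcab4b and Mcub had no row. Mcub is a newer name of Ccdc109b, which had a row and was counted in its list.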

Additional observations from a re-analysis of the deposited data

How the results depend on the processing

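With edgeR TMM library sizes or DESeq2 size factors in place of the total count, 7 genes reached 10 CPM in both libraries, 4 were past a ratio of 1.5 and 8 were lower in IP1, as with the total. The median log2 ratio of the 10 genes was -0.50 with TMM and -0.50 with DESeq2, and -0.44 with a prior of 5 counts. The median of all tested genes was 0.00 with either scaling. At a ratio of 2 the count past it was 1 (Ryr1), and 2 (Ryr1 and Orai1) with TMM or with DESeq2 factors, a combination chosen after seeing the data. At a level of 1 CPM the count of members was 9. The shares of all genes at a ratio of 2 and at 1 CPM were not worked out, so these counts have no background beside them. Leaving out each library in turn gave 7 to 8 members at 10 CPM, the eighth being Ryr3 in IP2. No paired analysis was possible because the libraries form 1 group. The alternative lengths for family shares were not run, since no transcript length was used here. Ryr1, with 14 counts in IP1, and Atp2a1, with 1, rest on few reads.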
